A study of Rattus norvegicus with 15 samples.

Results

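The p53 target genes described here are 9 well-known transcriptional targets of the tumour suppressor p53, led by Cdkn1a, measured in primary rat hepatocytes exposed to the antiandrogen flutamide. They were chosen by gene symbol, with earlier results of these data known. Of the 9, 8 had a probe set under their symbol on the array: Cdkn1a, Gadd45a, Ccng1, Mdm2, Phlda3, Bax, Bbc3 and Fas, among 14506 genes tested. Btg2 had no probe set under its symbol and enters only the promoter search. Bax had 2 probe sets, and the one of higher mean is given unless the other is named. Flutamide is a nonsteroidal antiandrogen with known liver toxicity. The cells were freshly isolated hepatocytes seeded on coated microfluidic biochips, left for 24 h to attach, and then perfused at 25 µl/min for 24 h with medium holding DMSO solvent (5 arrays), 10 µM flutamide (6 arrays) or 100 µM flutamide (4 arrays). Each array held the RNA of 1 titled biochip sample, and all 15 arrays enter the results. The labels name no strain, sex, age or animal, and nothing in them says that the biochips hold separate animals or cultures. The spread that enters the p-values is that among these biochip samples and may be technical. The sample titles carry numbers 10 to 16 (number run 1, with 2 DMSO, 3 10 µM and 2 100 µM arrays) and 20 to 27 (number run 2, with 3, 3 and 2). The labels do not say what the 2 runs are.

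p53 is a transcription factor that is held low by the ubiquitin ligase Mdm2 and accumulates after DNA damage and other stress. It then binds pairs of short half-sites in its target genes, some of which stop the cell cycle, some of which trigger cell death, and some of which, such as Mdm2 itself, feed back on p53. In the liver, induction of Cdkn1a, Ccng1, Mdm2 and Phlda3 is widely used as a readout of genotoxic exposure, although Cdkn1a and Gadd45a also answer to other stress signals.

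Promoter windows were taken for these genes from RefSeq (rat build GRCr8), each running from 250 bases before to 50 bases after the annotated start. A window was listed for 7 of the 9 genes, Bax and Bbc3 not among them. Only 1 window per gene was searched, so any other annotated start of a gene was not covered. Distances are counted from the start of that window's annotation. Each was searched for the p53 response element, that is 2 half-sites of the p53 consensus of 10 bases each, 0 to 13 bases apart, with the invariant C and G of both half-sites intact. The consensus reads the same on both strands. With at most 1 mismatch, Cdkn1a, Ccng1 and Gadd45a held a match (3 of 7 windows), as did 154 of 27457 rat windows (0.561%). With 2 mismatches allowed the members holding one were still 3, and the share of all windows was 3.62%. A match is a likeness of letters and not a measured binding site, and binding was not assayed in these samples. The matches, each with 1 mismatch, are shown because these 3 genes are the ones whose windows hold one.

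Cdkn1a match, 201 to 182 bases before the start, no spacer: GAACATGTCTTGACTTGTTC
Ccng1 match, 242 to 223 bases before the start, no spacer: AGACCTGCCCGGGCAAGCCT
Gadd45a match, 69 to 39 bases before the start, spacer of 11 bases: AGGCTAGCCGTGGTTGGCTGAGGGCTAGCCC

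The whole windows of these 3 genes and of Fas, whose level ran opposite to that of Cdkn1a across the arrays, follow in the direction of transcription with the matches in capitals. They lie at chr20:7150682-7150981 on the plus strand (Cdkn1a), chr10:25684827-25685126 on the minus strand (Ccng1), chr4:97486750-97487049 on the minus strand (Gadd45a) and chr1:241211905-241212204 on the plus strand (Fas). The Fas window holds no such match, and sequence outside the windows was not searched for any gene.

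Cdkn1a: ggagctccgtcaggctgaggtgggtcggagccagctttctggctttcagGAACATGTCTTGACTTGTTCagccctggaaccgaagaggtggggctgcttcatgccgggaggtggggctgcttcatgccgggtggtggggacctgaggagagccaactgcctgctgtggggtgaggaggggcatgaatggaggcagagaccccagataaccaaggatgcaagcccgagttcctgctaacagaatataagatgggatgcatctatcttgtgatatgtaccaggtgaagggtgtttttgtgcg
Ccng1: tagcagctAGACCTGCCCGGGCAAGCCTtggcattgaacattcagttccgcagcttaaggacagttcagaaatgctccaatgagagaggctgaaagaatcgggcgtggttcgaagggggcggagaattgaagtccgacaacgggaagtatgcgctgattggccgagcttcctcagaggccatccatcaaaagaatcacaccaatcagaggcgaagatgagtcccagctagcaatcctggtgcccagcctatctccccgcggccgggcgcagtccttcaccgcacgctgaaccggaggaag
Gadd45a: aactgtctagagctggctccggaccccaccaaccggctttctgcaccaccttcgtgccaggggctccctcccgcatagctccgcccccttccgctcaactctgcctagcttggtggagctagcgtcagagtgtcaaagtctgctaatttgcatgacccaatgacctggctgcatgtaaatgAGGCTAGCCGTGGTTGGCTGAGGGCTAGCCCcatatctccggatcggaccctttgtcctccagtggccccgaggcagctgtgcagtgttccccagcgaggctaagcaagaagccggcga
Fas: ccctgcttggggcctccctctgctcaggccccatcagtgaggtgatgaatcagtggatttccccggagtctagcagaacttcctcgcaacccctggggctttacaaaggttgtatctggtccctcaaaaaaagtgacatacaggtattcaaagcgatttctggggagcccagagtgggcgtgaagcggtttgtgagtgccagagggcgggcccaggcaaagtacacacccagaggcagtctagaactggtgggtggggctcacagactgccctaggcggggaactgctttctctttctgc

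The arrays carried the hepatocyte signal that the labels name. Albumin (Alb) lay at log2 values of 12.66 to 13.01, and the mean of 15 hepatocyte markers was 10.38 to 11.06. The means of the Kupffer cell and macrophage markers (17 genes) lay at 5.67 to 7.23, of the stellate (13) at 4.80 to 5.13, of the endothelial (9) at 4.58 to 5.15, of the cholangiocyte (7) at 5.38 to 5.88 and of the lymphocyte markers (11) at 4.53 to 4.73. The 10 µM array 23 stood apart from the others, with a median correlation of 0.962 with them against 0.978 to 0.990 for the remaining 14. It had the highest Kupffer cell mean (7.23, against 5.67 to 6.77) and the highest hepatocyte, stellate, endothelial and lymphocyte means, and the lowest cholangiocyte mean. In bulk RNA of this kind, fewer cells of a type and less RNA per cell cannot be told apart.

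No change of these genes with flutamide was called. A gene was called where its limma p, after Benjamini-Hochberg correction across the 14506 genes, was under 0.05. By this rule 0 of the 8 were called at 10 µM against DMSO and 0 at 100 µM against DMSO, where 0% of all genes were called in each. An unadjusted p under 0.05 was found for 4 of the 8 at 10 µM and 3 at 100 µM, where 7.65% and 6.85% of all genes (1109 and 993) had one. Of these, 3 members lay higher at 10 µM (Gadd45a, Cdkn1a and Ccng1), where 3.83% of all genes did, and 1 lower (Bax), where 3.82% did. At 100 µM 3 lay higher (Ccng1, Mdm2 and Cdkn1a), where 3.43% of all genes did, and 0 lower, where 3.42% did. These counts rest on the fit with the number run as a block: without that block Cdkn1a had an unadjusted p of 0.0747 at 10 µM and 0.0777 at 100 µM, which leaves 3 and 2 of the 8. With each array left out in turn the counts ran from 2 to 5 at 10 µM and from 1 to 3 at 100 µM. Bax (lower) and Gadd45a (higher) were among those at 10 µM each time, and Ccng1 among those at 100 µM. The median log2 difference of the 8 genes was 0.01 at 10 µM and 0.13 at 100 µM, against 0.00 and 0.02 over all genes. Both doses share the 5 DMSO arrays. The genes below are described by role, first those of cell cycle arrest, then those that feed back on p53 and its neighbours, then those of cell death.

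**Figure D1:**
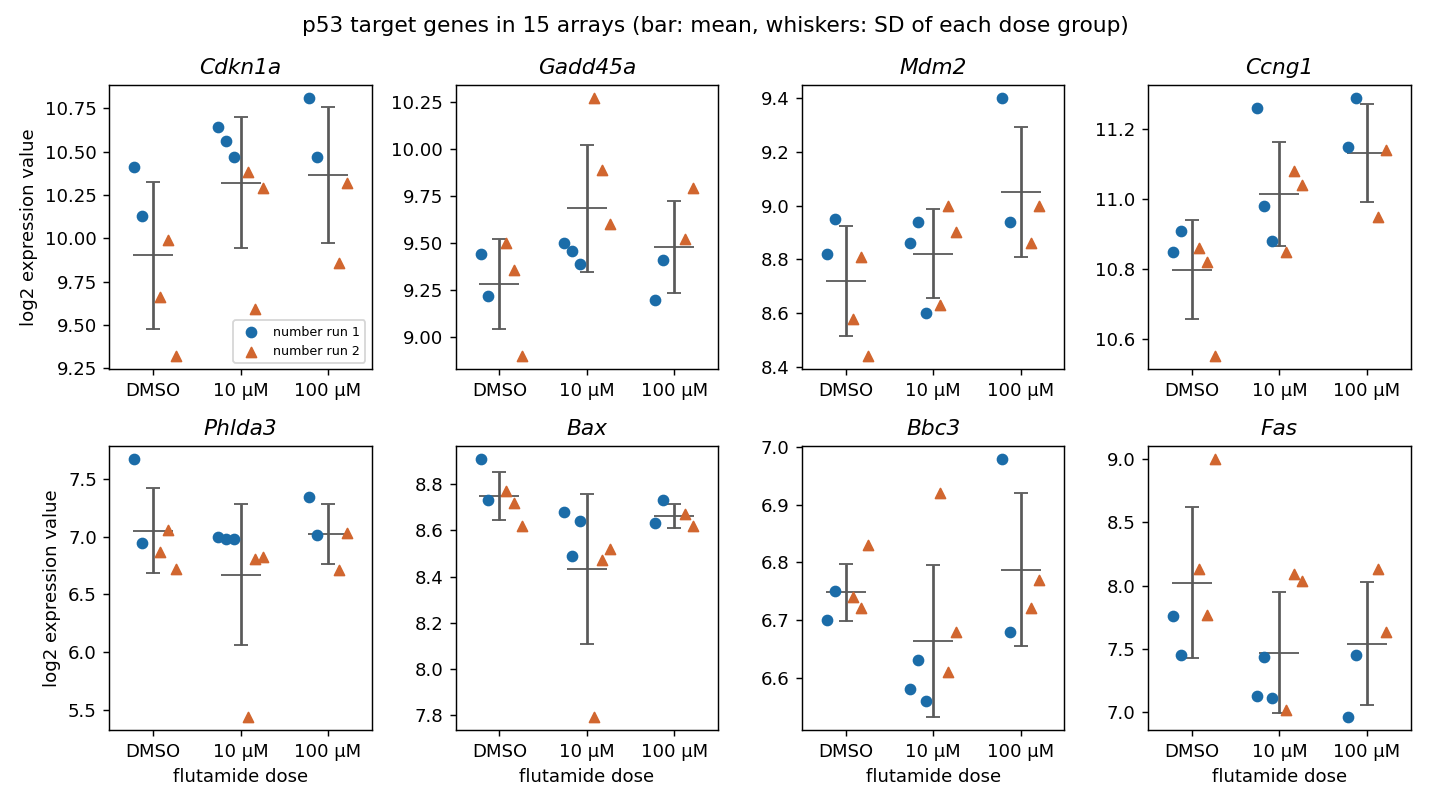
Log2 expression value (y axis) of the 8 measured p53 target genes by dose (x axis), 1 point per array, with number run 1 as blue circles and number run 2 as orange triangles. Horizontal bars are group means and whiskers SD (5 DMSO, 6 10 µM, 4 100 µM arrays); the 4 Ccng1 values at 100 µM (10.95 to 11.29) lie above all 5 DMSO values, and array 23 holds the lowest Phlda3 (5.44) and Bax (7.79) values.

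Cdkn1a encodes p21, the inhibitor of cyclin-dependent kinases that carries out most of the p53-driven arrest in G1. Its log2 values were 10.41, 10.13, 9.66, 9.99 and 9.32 in DMSO arrays 10, 11, 20, 21 and 22. At 10 µM they ran from 9.59 through a median of 10.43 to 10.64, and at 100 µM they were 10.81, 10.47, 9.86 and 10.32 in arrays 15, 16, 26 and 27. The groups overlapped, since 3 of 6 arrays at 10 µM and 2 of 4 at 100 µM lay above every DMSO array and none lay below them all. Cdkn1a was higher by a log2 difference of 0.37 at 10 µM (SE 0.16, 1.29-fold, 95% interval 0.04 to 0.70, n = 6 against 5, limma adjusted p = 0.597). At 100 µM the difference was 0.41 (SE 0.17, 1.33-fold, interval 0.04 to 0.78, n = 4 against 5, limma adjusted p = 0.708). Between the doses it was 0.04 (interval -0.31 to 0.39) with a limma adjusted p of 0.984.
Within number run 1 the differences of means were 0.29 at 10 µM and 0.37 at 100 µM, both against the same 2 DMSO arrays. Within number run 2 the differences were 0.44 at each dose, with 2 of 3 and 1 of 2 arrays above every DMSO array of that run. Array 24 (9.59) was the lowest of the 10 µM arrays. The difference at 10 µM was 0.48 without that array and 0.28 without DMSO array 22, and the latter array also gave the lowest of the leave-one-out values at 100 µM (0.32).

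Gadd45a encodes a small stress protein that binds PCNA and kinases of the stress pathways. Its DMSO values were 9.44, 9.22, 9.50, 9.36 and 8.90 in arrays 10, 11, 20, 21 and 22. At 10 µM it ran from 9.39 (median 9.55) to 10.27, and at 100 µM it stood at 9.20, 9.41, 9.52 and 9.79. The groups overlapped, and the top value of all 15 arrays was that of 10 µM array 23. The log2 difference was 0.42 at 10 µM (SE 0.15, 1.34-fold, limma adjusted p = 0.488) and 0.22 at 100 µM (SE 0.16, limma adjusted p = 0.818). In number run 2 the difference of means was 0.66 at 10 µM and 0.40 at 100 µM, and in number run 1 it was 0.12 and -0.02. The difference between the runs in the 10 µM effect was not called (0.55 at 10 µM, interval -0.04 to 1.14, limma adjusted p = 0.512). Without the 3 arrays of lowest limma quality weight (10 µM arrays 23 and 24 and 100 µM array 15, left out together after the data were seen), the 10 µM difference was 0.23.

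Ccng1 encodes cyclin G1, which brings a phosphatase to Mdm2. DMSO arrays 10, 11, 20, 21 and 22 read 10.85, 10.91, 10.86, 10.82 and 10.55, and the 100 µM arrays 11.15, 11.29, 10.95 and 11.14. All 4 of the 100 µM arrays lay above all 5 DMSO arrays, a separation shown in the same direction by 1.13% of all genes. At 10 µM the values ran from 10.85 (median 11.01) to 11.26, with 4 of 6 arrays above every DMSO array. The log2 difference was 0.21 at 10 µM (SE 0.09, 1.15-fold, interval 0.02 to 0.40, limma adjusted p = 0.607). It was 0.32 at 100 µM (SE 0.10, 1.25-fold, interval 0.11 to 0.53, limma adjusted p = 0.649), rank 104 of 14506 genes by p. Both runs gave like sizes at 100 µM, 0.34 in number run 1 and 0.30 in number run 2. Leaving out any 1 array kept the 100 µM difference between 0.27 and 0.37.

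Mdm2, the ubiquitin ligase that destroys p53 and is induced by it, read 8.82, 8.95, 8.58, 8.81 and 8.44 in DMSO arrays 10, 11, 20, 21 and 22. Its 10 µM values ran from 8.60 (median 8.88) to 9.0. At 100 µM it stood at 9.40, 8.94, 8.86 and 9.0 in arrays 15, 16, 26 and 27, with the highest value in array 15. Groups overlapped, with 2 of 4 arrays at 100 µM above every DMSO array. The difference at 10 µM was 0.09 (SE 0.11, limma adjusted p = 0.924), -0.08 in number run 1 and 0.23 in number run 2. At 100 µM it was 0.31 (SE 0.13, 1.24-fold, interval 0.04 to 0.59, limma adjusted p = 0.698), with 0.29 and 0.31 in the 2 runs and 0.22 without array 15.

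Phlda3, a pleckstrin-homology protein that holds back the kinase Akt, read 7.67, 6.94, 6.87, 7.06 and 6.72 in the DMSO arrays, 10 standing highest. At 10 µM 5 of the 6 values lay between 6.81 and 7.0, and array 23 stood at 5.44. The 100 µM arrays read 7.34, 7.01, 6.71 and 7.03, 1 of them just below the lowest DMSO array and none above the highest. The difference was -0.43 at 10 µM (SE 0.22, limma adjusted p = 0.687) and -0.08 at 100 µM (SE 0.24, limma adjusted p = 0.97). Without array 23 the 10 µM difference was -0.20, nearer to 0 than with it.

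Bax, the protein that opens the outer mitochondrial membrane in apoptosis, read 8.91, 8.73, 8.77, 8.72 and 8.62 in DMSO arrays 10, 11, 20, 21 and 22. At 10 µM it ran from 7.79 in array 23 (median 8.50) to 8.68, and 4 of 6 arrays lay below every DMSO array. The difference of means from DMSO at 10 µM was -0.22 within number run 1 and -0.45 within number run 2. At 100 µM it read 8.63, 8.73, 8.67 and 8.62, between the lowest and highest DMSO arrays. The log2 difference was -0.34 at 10 µM (SE 0.12, 1.26-fold lower, interval -0.59 to -0.08, limma adjusted p = 0.495) and -0.11 at 100 µM (SE 0.13, limma adjusted p = 0.903). Without array 23 the 10 µM difference was -0.21. The second Bax probe set gave -0.40 at 10 µM (SE 0.18) and -0.22 at 100 µM (SE 0.20), and its lowest value was again that of array 23 (6.83). Without that array, an alternative chosen after the data were seen, both differences were -0.20 (SE 0.09 each).

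Bbc3 encodes PUMA, which frees Bax from its inhibitors. It varied little, from 6.56 to 6.98 over the 15 arrays. DMSO arrays read 6.70, 6.75, 6.74, 6.72 and 6.83, the 100 µM arrays 6.98, 6.68, 6.72 and 6.77, and 5 of 6 arrays at 10 µM lay between 6.56 and 6.68, below every DMSO array, while array 23 stood at 6.92. The differences were -0.08 at 10 µM (SE 0.08, interval -0.25 to 0.09, limma adjusted p = 0.882) and 0.04 at 100 µM (SE 0.09, interval -0.14 to 0.23, limma adjusted p = 0.946). Without array 23 the 10 µM difference was -0.13 (SE 0.07, limma adjusted p = 0.643).

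Fas, the death receptor of the tumour necrosis factor receptor family, had the widest spread among DMSO arrays, with 7.76, 7.45, 8.13, 7.77 and 9.0. At 10 µM it ran from 7.02 (median 7.28) to 8.09 and at 100 µM it read 6.96, 7.45, 8.13 and 7.63. The groups overlapped, and 4 of 6 arrays at 10 µM and 1 of 4 at 100 µM lay below every DMSO array. The difference was -0.49 at 10 µM (SE 0.23, 1.40-fold lower, interval -0.98 to 0.01, limma adjusted p = 0.660) and -0.42 at 100 µM (SE 0.26, interval -0.96 to 0.13, limma adjusted p = 0.785). Both were negative in each run (-0.37 and -0.58 at 10 µM, -0.39 and -0.42 at 100 µM). Without DMSO array 22, where Fas was highest, they were -0.30 and -0.23, and without 10 µM array 23 the 10 µM difference was -0.31.

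**Figure D2:**
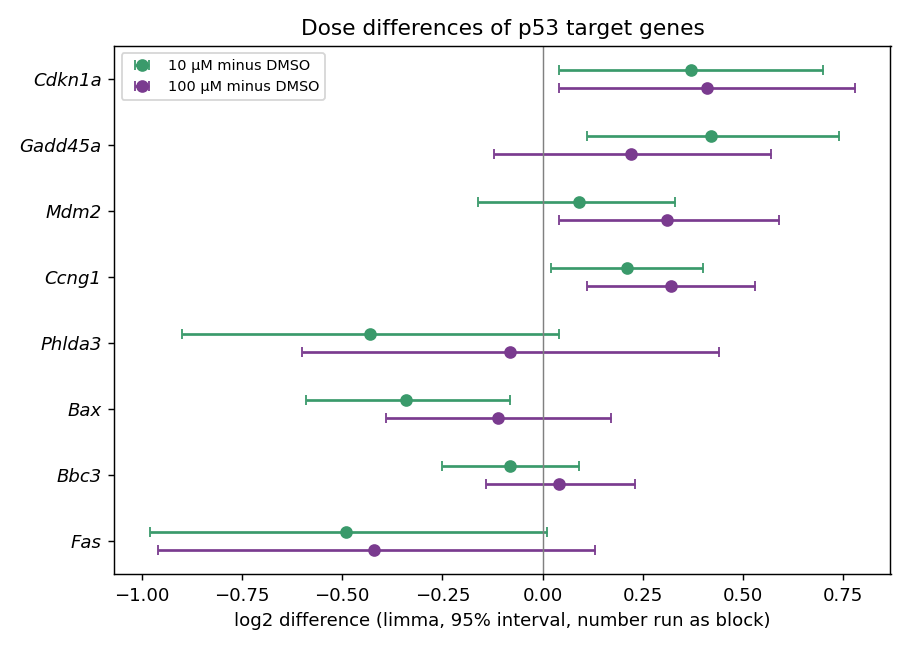
Log2 difference from DMSO (x axis) of each gene (y axis) at 10 µM (green) and 100 µM (purple), points with 95% intervals from limma with the number run as a block. Cdkn1a, Gadd45a, Mdm2 and Ccng1 lie to the right of 0 at both doses, Bax, Phlda3 and Fas to the left, and Bbc3 within 0.1 of 0.

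Set side by side, Cdkn1a, Gadd45a, Ccng1 and Mdm2 had positive differences at both doses, Phlda3, Bax and Fas negative ones at both, and Bbc3 -0.08 and 0.04. None of these differences was called. Whether the signs followed the roles of the genes was not tested. With each array left out in turn the Phlda3 difference at 100 µM ranged from -0.20 to 0.02. Of the 17 other measured p53 targets of apoptosis and autophagy, 10 lay higher at 10 µM and 11 at 100 µM. Over all genes 49.1% and 55.7% did. Between 100 µM and 10 µM the largest were 0.35 for Phlda3 (SE 0.23, 0.13 without array 23) and 0.23 each for Mdm2 (SE 0.12) and Bax (SE 0.13, 0.11 without array 23). Without array 15 that of Mdm2 was 0.12. At an unadjusted p under 0.05, 0 of the 8 differed between the doses, where 4.98% of all genes did.

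For Cdkn1a the difference between the 2 number runs had a lower p than either dose difference. Its 8 number run 2 arrays read 9.32 to 10.38 and the 7 number run 1 arrays 10.13 to 10.81, with 5 of the 8 below all 7. The log2 difference between runs was -0.54 with dose held in the fit (SE 0.13, 1.45-fold lower in number run 2, limma adjusted p = 0.0952). It was -0.62 within DMSO, -0.47 within 10 µM and -0.54 within 100 µM, so it lay on the same side at each dose. Fas went the other way, higher in number run 2 by 0.60 (SE 0.20, 1.52-fold, limma adjusted p = 0.236), with 0.69, 0.49 and 0.67 within the 3 doses. Phlda3 was lower in number run 2 by a difference of -0.47 (SE 0.19, limma adjusted p = 0.362), and -0.30 without array 23. None of the 8 genes was called between the runs, where 79 of all genes were (0.545%), and 3 had an unadjusted p under 0.05, where 11% of all genes did. Of 16 interaction tests, which ask whether a dose difference differed between the runs, 0 were called, where 0.0414% of all genes were at 10 µM and 0.00689% at 100 µM. The intervals of these tests are wide, with a median half-width over all genes of 0.48 at 10 µM and 0.53 at 100 µM, against 0.24 and 0.27 for the dose differences themselves.

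**Figure D3:**
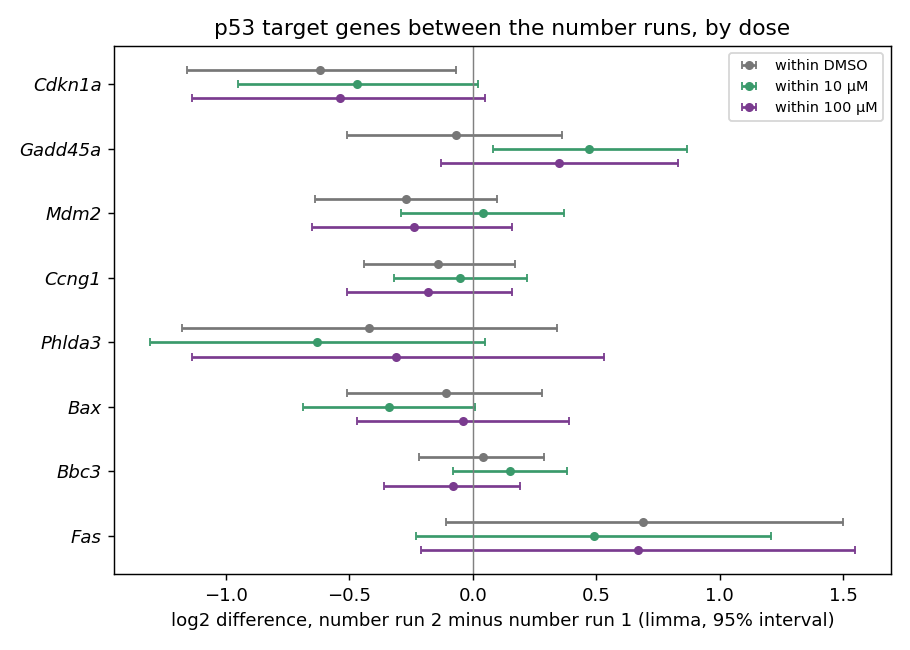
Log2 difference of number run 2 minus number run 1 (x axis) of each gene (y axis) within DMSO (grey), 10 µM (green) and 100 µM (purple), with 95% intervals from limma. Cdkn1a lies below 0 (-0.62 to -0.47) and Fas above 0 (0.49 to 0.69) at each dose.

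Over the 15 arrays the Pearson correlation of Cdkn1a and Fas was -0.88 (Spearman -0.86), and of 14505 other genes Fas was the one most negatively correlated with Cdkn1a. The correlation was -0.79 without arrays 22 and 24, the 2 farthest from the Cdkn1a median. It was -0.62 within number run 1 (7 arrays), -0.84 within number run 2 (8 arrays) and -0.72 after the means of each dose and run were taken out. These correlations are descriptions, since the arrays share doses and runs and the pair was picked from 28 after its value was seen.
Among the positive pairs, Cdkn1a correlated at 0.60 with Ccng1 and 0.53 with Mdm2, and Mdm2 at 0.70 with Ccng1. Once the means of each dose and run were taken out these were 0.15, 0.21 and 0.45, each lower than over the undivided arrays. Bax and Phlda3 correlated at 0.89, but at 0.56 without array 23 and at 0.17 without arrays 10 and 23. Gadd45a ran against Bax at -0.70, and at -0.29 without array 23.

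**Figure D4:**
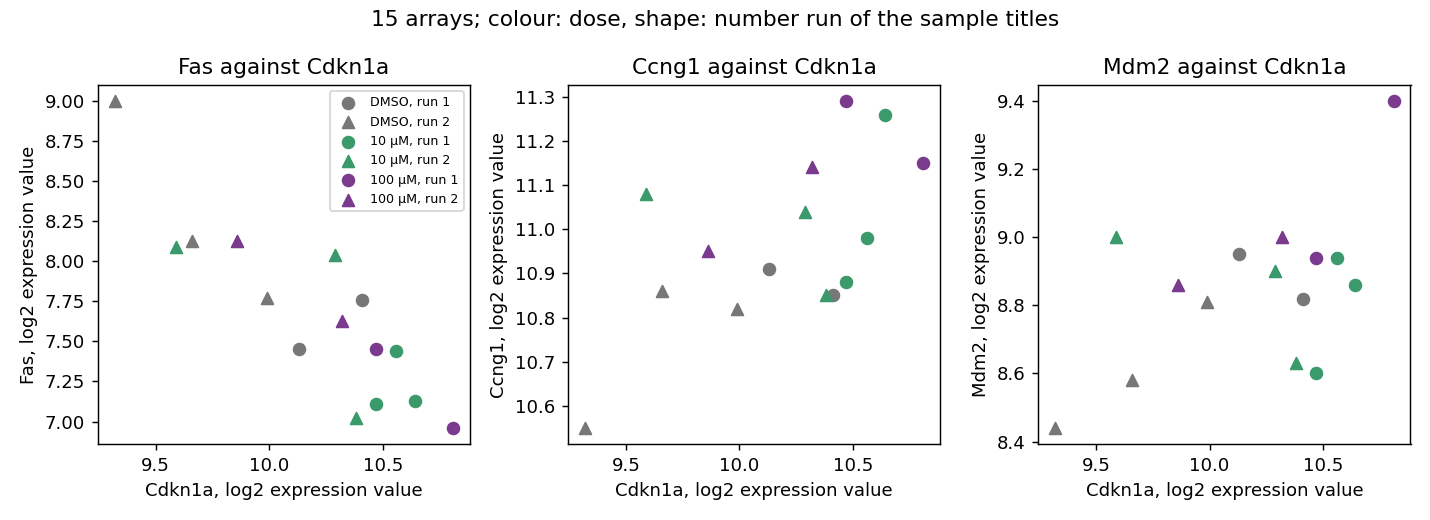
Log2 expression value of Fas, Ccng1 and Mdm2 (y axes) against that of Cdkn1a (x axes) in the 15 arrays, coloured by dose and shaped by number run. Fas is lower in arrays where Cdkn1a is higher (r = -0.88), and Ccng1 (0.60) and Mdm2 (0.53) are higher there, with more scatter.

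The 5 genes whose log2 values followed Cdkn1a most closely over the 15 arrays were Tsc1 (Pearson r = 0.92), Abraxas2 (0.87), Gab2 (0.87), Capzb (0.86) and Selenok (0.85). Tsc1 encodes hamartin, an inhibitor of the growth kinase mTOR. Its correlation was 0.94 and 0.82 within number runs 1 and 2, and 0.76 after the means of each dose and run were taken out. Selenok had -0.05 in number run 1 and 0.91 in number run 2, and 0.82 after those means were taken out. All 5 were picked by their correlation over these same arrays, so these values are descriptions and not tests. The sixth was Cd68 (0.84), a lysosomal protein abundant in macrophages, at log2 values of 7.18 to 10.50. Its means were 8.40 in DMSO, 9.71 at 10 µM and 9.72 at 100 µM, and within DMSO 10.01 in number run 1 and 7.33 in number run 2. The fitted differences of Cd68 were 1.17 (SE 0.38, limma adjusted p = 0.447) at 10 µM, 1.18 (SE 0.42, limma adjusted p = 0.665) at 100 µM and -1.42 (SE 0.32, limma adjusted p = 0.0708) between the runs, each with the same sign as that of Cdkn1a. Among the defining Kupffer cell markers Clec4f lay at 4.76 to 5.98 and Csf1r at 4.94 to 5.87. Over all arrays the gene means of the 17 measured markers ran from 4.44 (Adgre1) to 9.64 (Cd14), with Lyz2 at 7.16 and Cd68 at 9.28. The mean of the 17 Kupffer cell and macrophage markers lay at 5.91 to 6.77 in DMSO. It lay at 5.67 to 7.23 at 10 µM and at 5.73 to 6.31 at 100 µM. Of the 17, 5 and 3 were higher than in DMSO at 10 and 100 µM, where 49.1% and 55.7% of all genes were. The part of other cell types in the Cdkn1a values was not tested.

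The wider p53 pathway was described through 7 lists with 126 measured genes of 147 entries. At 10 µM and at 100 µM 0 of them were called. Of the 28 genes named from these lists, 7 had a mean under the lowest array median of 5.38, namely E2f1 (3.76), Pmaip1 (3.79), Rrm2 (4.18), Chek2 (4.45), Cpt1c (4.88), Ccna2 (5.25) and Bcl2l11 (at that median after rounding). The deposited values carry no detection call, so it is not known whether these probe sets were above background. Of p53 and its upstream regulators 16 of 20 were measured, with a median log2 difference of 0.05 at 10 µM and 0.00 at 100 µM. Of these, 2 had an unadjusted p under 0.05 at 10 µM, where 7.65% of all genes did. They were the acetyltransferase Ep300 (0.29, SE 0.09) and the p53 inhibitor Mdm4 (0.26, SE 0.08), both higher. The difference of Mdm4 was 0.04 in number run 1 and 0.44 in number run 2, and that of Ep300 0.28 and 0.31. At 100 µM 2 of the regulators had such a p, where 6.85% of all genes did. These were the checkpoint kinase Chek2 (0.65, SE 0.29) higher and the p53 kinase Hipk2 (-0.36, SE 0.14) lower. For Ep300 all 6 of the 10 µM arrays lay above all 5 DMSO arrays, as did those of 0.414% of all genes.

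Among 16 measured further targets of arrest and stress, Gdf15, which encodes a stress-induced cytokine, had the lowest p at 10 µM. It read 7.94, 7.66, 7.78, 7.30 and 7.58 in the DMSO arrays and 8.01 to 8.62 in the 6 of 10 µM, again with no overlap. The difference was 0.62 at 10 µM (SE 0.13, 1.53-fold, limma adjusted p = 0.285, rank 20 of all genes) and 0.41 at 100 µM (SE 0.15, limma adjusted p = 0.682). At 10 µM it was 0.29 in number run 1 and 0.87 in number run 2. Ccng2, the relative of Ccng1, was at 0.63 (SE 0.27) at 10 µM, and the stress kinase Plk3 at -0.40 (SE 0.17) and -0.56 (SE 0.19) at 10 and 100 µM. In number runs 1 and 2 Plk3 was at -0.07 and -0.64 at 10 µM, and at -0.22 and -0.81 at 100 µM. Its DMSO means were 6.46 in number run 1 and 7.26 in number run 2. The list medians were 0.04 and 0.03.

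Over all genes an unadjusted p under 0.05 was found for 7.65% at 10 µM and 6.85% at 100 µM. Among 17 measured targets of apoptosis and autophagy, 0 had one at either dose. Those of lowest p were Apaf1, the apoptosome scaffold (-0.43, SE 0.21), and Ei24 (-0.15, SE 0.08) at 10 µM, and Pmaip1, which encodes NOXA (0.32, SE 0.15), and Dram1 (0.17, SE 0.10) at 100 µM. The sign of Apaf1 at 10 µM turned between the runs, with 0.20 in number run 1 and -0.93 in number run 2 (difference between the runs -1.13, SE 0.32, limma adjusted p = 0.307). At 100 µM it did so too (0.12 and -0.69). Of 15 measured genes of repair and metabolism, 13 lay higher at 10 µM (median 0.13) and 6 at 100 µM (median -0.03), where 49.1% and 55.7% of all genes lay higher. At 10 µM 4 had an unadjusted p under 0.05, all higher, where 3.83% of all genes did. Among these were Rad51c, of recombination repair, at 0.82 (SE 0.31) and the bypass polymerase Polk at 0.43 (SE 0.16), and at 100 µM they were at 0.20 (SE 0.34) and -0.14 (SE 0.17). At 100 µM 3 did, all higher, where 3.43% of all genes did, with Cpt1c (0.31, SE 0.11) and Ddit4, an mTOR inhibitor (0.39, SE 0.16), the 2 of lowest p.

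The close relatives of the 9 genes (25 of 27 measured) had a median of 0.02 at both doses. Btg3, an antiproliferative relative of Btg2, was at 0.41 (SE 0.12) and 0.35 (SE 0.13) at 10 and 100 µM. Bcl2l11, which encodes the BH3 protein BIM, was at 0.54 (SE 0.18) and 0.27 (SE 0.20), and Bak1, the relative of Bax, at -0.08 (SE 0.08) and 0.15 (SE 0.09), the latter made of 0.38 in number run 1 and -0.05 in number run 2. Between the runs 2 of the 25 were called, where 0.545% of all genes were, both higher in number run 2: Phlda1, a relative of Phlda3, by 1.37 (SE 0.19, 2.59-fold, limma adjusted p = 0.00566) and the TNF receptor gene Tnfrsf1a by 0.56 (SE 0.11, 1.48-fold, limma adjusted p = 0.0352). In both, all 8 number run 2 arrays lay above all 7 of number run 1, as in 0.207% of all genes.

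Genes on which p21 acts were followed as well. Of 14 measured partners and targets of p21, the median was 0.02 at 10 µM and 0.00 at 100 µM, with Ccna2, cyclin A2, at 0.25 (SE 0.09) and Cdk4 at -0.39 (SE 0.17) at 10 µM. Cdk4 turned its sign between the runs there, with 0.07 in number run 1 and -0.76 in number run 2 (difference between the runs -0.83, SE 0.26, limma adjusted p = 0.342). At 100 µM the lowest p values were those of Ccne2, cyclin E2 (-0.37, SE 0.18), and the transcription factor E2f1 (0.14, SE 0.08). Of 23 measured cell cycle genes that p53 and p21 are known to lower, 17 lay higher and 6 lower at 10 µM (median 0.07), and 19 higher and 4 lower at 100 µM (median 0.05), where 49.1% and 55.7% of all genes lay higher. Some marker lists of other cell types had a like share higher at 100 µM, with 11 of 13 stellate and 9 of 11 lymphocyte markers. Others did not, with 4 of 7 cholangiocyte, 1 of 9 endothelial and 3 of 17 Kupffer cell markers, and 6 of 15 hepatocyte markers. Ccnb2, a mitotic cyclin, was at 0.45 (SE 0.12) at 10 µM and 0.02 (SE 0.13) at 100 µM. Mcm2, of the replication helicase, was at -0.21 (SE 0.08) at 10 µM. At 100 µM Rrm2, of nucleotide synthesis, was at 0.23 (SE 0.10) and Birc5, which encodes survivin, at 0.20 (SE 0.10). None of these 4 genes was called.

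**Figure D5:**
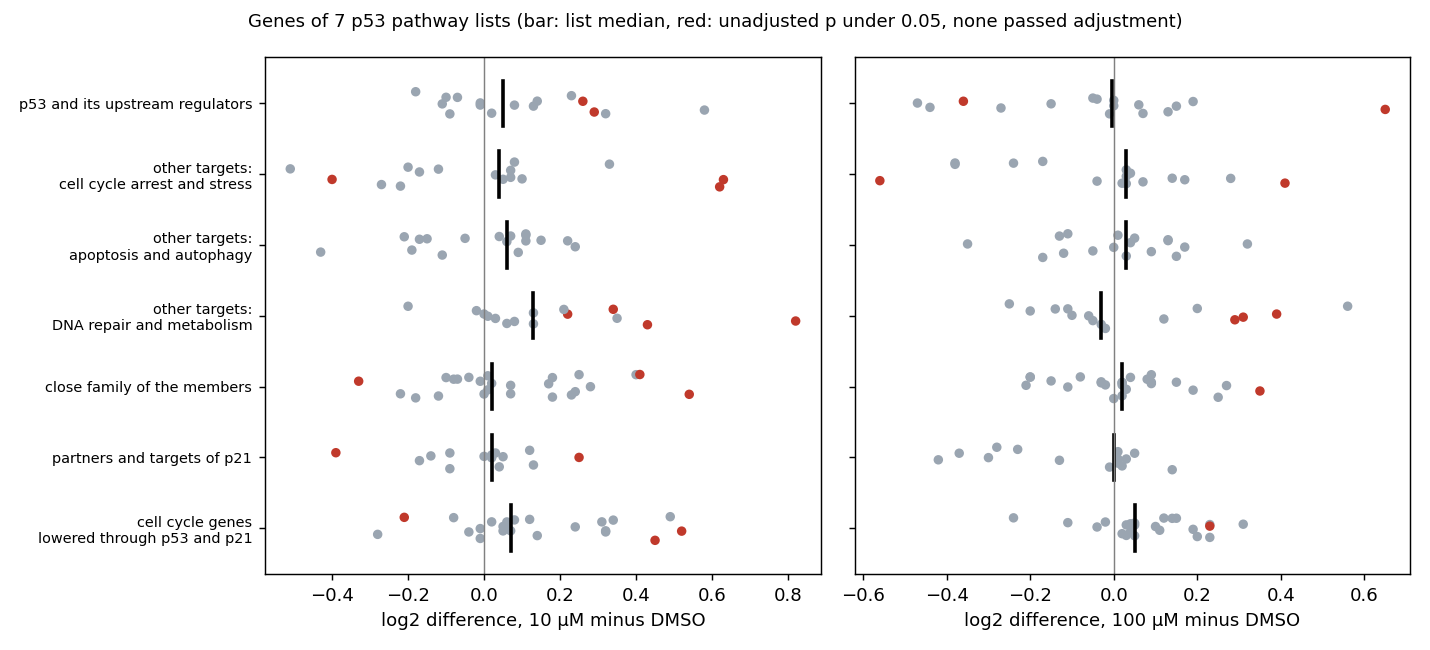
Log2 difference from DMSO (x axes) at 10 µM (left) and 100 µM (right) of 126 list entries in 7 p53 pathway lists (rows), 1 point per gene, with black bars at list medians and red points at an unadjusted p under 0.05. List medians lie between -0.03 and 0.13, and 0 genes passed the adjustment over all genes.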

How the data were processed

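RNA of 15 biochip samples was measured on Affymetrix arrays. The deposited values are log2 expression values that the authors made with RMA and Partek, per the submitters' processing notes. For both, the version was not given in the sources used here. Array medians lay at 5.38 to 5.51, and the number of arrays limits the precision. Of 29214 probe sets, 15310 had 1 gene symbol, and the probe set of highest mean was kept for each of 14506 genes. limma 3.58.1 in R 4.3.3 (lmFit, eBayes) fitted dose group and number run on all 15 arrays, with Benjamini-Hochberg adjustment over all genes. A second fit held the interaction of dose and run. Intervals are 95%. Groups came from the sample titles.

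The members and lists were chosen with earlier results of these data known. Genes named from each list were those called and the 2 of lowest unadjusted p at each dose. The alternatives were no number run block, the mean of all probe sets of a gene, renewed quantile normalization, leaving out dim genes, array quality weights, other eBayes settings, each run alone, and leaving out each array. The scripts were tested on simulated data. Btg2 had no probe set under its symbol and was searched only for promoter matches.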

Additional observations from a re-analysis of the deposited data

Results flagged for a closer look

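Of 27 groups of 4 to 6 arrays examined for 1 array far from the rest, 6 held such an array, and chance marks about 1 in 20 groups. In the 10 µM group, array 23 was lowest for Phlda3 (5.44, next 6.81), for Bax (7.79, next 8.47) and for the second Bax probe set (6.83, next 7.88), and highest for Bbc3 (6.92, next 6.68). Array 23 also had the lowest quality weight of all arrays (0.205) and the highest Kupffer cell and macrophage marker mean (7.23), and the part of either in these values was not tested. In the same group array 24 was lowest for Cdkn1a (9.59, next 10.29). Among DMSO arrays, array 22 was lowest for Ccng1 (10.55, next 10.82).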

How the results depend on the processing

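Of 1104 values of the 8 genes under the alternatives, 1050 kept their direction and side of the threshold, 54 changed sign and 0 changed a call. Without the number run block 0 genes were called in any dose comparison. Of the 8 members, those at an unadjusted p under 0.05 (4 at 10 µM, 3 at 100 µM) were 3 at 10 µM with dim genes left out (Ccng1 at 0.0551), 2 at each dose without the 3 arrays of lowest quality weight, 0 at each dose in number run 1 alone, and 2 and 0 in number run 2 alone. The lowest adjusted p from limma was 0.278 in the dose comparisons (Gadd45a at 10 µM) and 0.0531 between runs (Cdkn1a). No paired analysis was possible because the groups share no replicate numbers. The cause of the changes below was not tested.

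Signs changed mostly where the value was near 0. With renewed quantile normalization the run difference in the 100 µM effect on Fas was 0.07. With array quality weights Bbc3 at 100 µM was 0, Cdkn1a at 100 against 10 µM was -0.02 and the run difference in the 10 µM effect on Phlda3 was 0.12. In number run 1 alone Mdm2 at 10 µM was -0.08, Gadd45a at 100 µM -0.02 and Fas at 100 against 10 µM -0.02. In number run 2 alone Bbc3 at 100 µM was -0.02. Between runs, Gadd45a was -0.07 within DMSO, Mdm2 0.04 within 10 µM and Bbc3 -0.08 within 100 µM. Without the 3 arrays of lowest quality weight, chosen after seeing the data, Bbc3 at 100 µM was -0.03, and Cdkn1a and Gadd45a at 100 against 10 µM were -0.09 and 0.06. There the run differences in the 10 µM effect were 0.03 for Bax, 0.25 for Phlda3 and 0.11 for Fas, and in the 100 µM effect 0.03 for Bbc3.

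With each array left out in turn, Phlda3 at 100 µM ranged from -0.20 to 0.02, Bbc3 at 100 µM from -0.03 to 0.08, and at 100 against 10 µM Cdkn1a ranged from -0.06 to 0.13 and Fas from -0.09 to 0.17. The run difference in the 10 µM effect ranged from -0.02 to 0.40 for Cdkn1a, -0.36 to 0.00 for Bax, -0.01 to 0.20 for Ccng1, -0.57 to 0.25 for Phlda3 and -0.47 to 0.15 for Fas. That in the 100 µM effect ranged from -0.16 to 0.30 for Cdkn1a, -0.20 to 0.25 for Mdm2, -0.01 to 0.17 for Bax, -0.14 to 0.05 for Ccng1, -0.25 to 0.48 for Phlda3, -0.27 to 0.03 for Bbc3 and -0.29 to 0.33 for Fas.

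Counts of called genes, 0 at each dose against DMSO, were 1 at 10 µM with renewed quantile normalization and 1 with quality weights, and 7 at 10 µM and 1 at 100 µM in number run 2 alone. The 79 genes called between runs were 191 with quality weights, and 36, 8 and 12 within DMSO, 10 µM and 100 µM. The 6 genes called for a run difference in the 10 µM effect were 3 with renewed quantile normalization, 2 without dim genes, 17 with quality weights, 2 with trend and robust eBayes, and 3 without the 3 arrays. The 1 gene so called for 100 µM was 4 with quality weights and 5 without the 3 arrays. Leaving out each array gave 0 to 1 at 10 µM, 37 (without DMSO array 11) to 129 (without 10 µM array 23) between runs, 2 to 116 for the 10 µM run difference and 0 to 22 for that at 100 µM.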
